A study of Mus musculus with 12 samples.

Results

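The strand symmetry of CpG methylation was examined in targeted BS-seq of mouse embryonic stem cells with and without a stable Tet2 knockdown. A CpG reads the same on both DNA strands, so each site offers 2 cytosines, and a site was kept where the plus-strand cytosine and the minus-strand cytosine next to it each had at least 10 read-outs in all 6 BS-seq samples. This gave 187 sites (374 cytosines) in 15 loci, out of 416 CpG cytosines so covered and 427 CpG cytosines found anywhere in the 12 samples of the series. The measure was the C share, the percent of read-outs at a cytosine that were C rather than T. Bisulfite turns unmodified cytosine into T and leaves 5mC and 5hmC as C, so the C share holds 5mC plus 5hmC and cannot tell them apart.

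The groups were 3 samples of parental v6.5 cells, labelled wild-type, and 3 samples of v6.5 cells carrying pSUPER-puro-Tet2shRNA (Tet2kd), all grown in serum with LIF. The genotype and source labels call the v6.5 samples wild-type and parental, while their titles also carry the word knock-down, and they were taken as parental. The protocol for the Tet2-depleted cells also lists a Tet1 shRNA construct as an alternative, and which construct entered each Tet2kd sample is given only by its genotype, title and source labels. Tet2kd cells came from electroporation, puromycin selection on feeder cells and picking of individual clones, none of which the parental cells are stated to have undergone, so knockdown and clonal history cannot be told apart. The labels give replicate numbers without saying which clone each sample came from, so the p-values measure the spread between these samples. The loci were picked by the study from earlier antibody-based methylation maps of v6.5 and Tet2-depleted cells. Some were chosen because they differed in those maps and others because they did not. The share of changed sites is therefore not that of the genome, and loci with and without a change were part of the choice. The files hold DNA methylation only, and the level of Tet2 and stem cell markers were not checked here.

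TET enzymes oxidize 5mC to 5hmC and further to forms that bisulfite reads as T, and TET2 is one of the TET enzymes of embryonic stem cells. In dividing cells DNMT1 restores methylation on the new strand of a CpG from the methylated old strand, which keeps the strands of most CpGs alike. 5hmC is a poor template for this copying. After bisulfite treatment the strands no longer pair, so each is amplified and counted from its own template.

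Windows of 30 bases (mm9, plus strand, 1-based) around sites that the results turn on are given with the CpG in capitals. The first group are the sites with the largest change in the loci that changed most, the next are sites whose strands differed most, and the last are a fully methylated and an unmethylated site.
Igsf21 intron, chr4:139783842-139783871: tcagtcagcccggcCGttcacggagaagca
Gm11949 region, chr11:3525873-3525902: agacgacctgacttCGacgacgatcacttc
Letmd1 coding exon, chr15:100300188-100300217: agcgattaacggatCGtaccatcgtttctt
Twist2 upstream region, largest change, chr1:93675092-93675121: cacatctgttgaatCGtctcaaatatttct
Klf3 distal region, largest strand difference, chr5:64987408-64987437: atatgtgaacacggCGggggaatgtaggta
Twist2 upstream region, largest strand difference, chr1:93674866-93674895: ctttaatatacaccCGcttacttctcgcag
Zbtb40 coding exon, methylated, chr4:136547552-136547581: acagtactggcacgCGtacattttccctgc
Timm17b intron, unmethylated, chrX:7476588-7476617: gaaccttggtacggCGatgggcacaggctt

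Genomic read-outs per BS-seq sample lay between 6170342 and 18096597, and those at the 374 cytosines between 1225964 and 3479275. The median coverage of a cytosine in a sample was 1571, at which a C share of 50% has a Wilson 95% interval from 47.5% to 52.5% and 3 counts correspond to 0.191%. The lowest coverage was 13. These intervals cover counting error only, since PCR copies are not separate molecules. At 2236 non-CpG cytosines, whose C read-outs can come from incomplete conversion or from non-CpG methylation, the pooled C share ranged from 0.383% to 0.461% in v6.5 and from 0.495% to 0.602% among the Tet2kd samples. It was thus higher in every Tet2kd sample, and its part in the CpG results was not tested.

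Averaged over the 187 sites and both strands, the C share was 54.5%, 54.6% and 55.6% in the v6.5 samples and 64.7%, 64.2% and 64.999% in the Tet2kd samples. The means were 54.9% ± 0.603 and 64.6% ± 0.405 (SD, n = 3 each), and the groups did not overlap. Tet2kd was higher by 9.71 percentage points, with p = 0.1 in the exact two-sided permutation test, the smallest p that 3 against 3 samples allow. The difference was seen on both strands, from 55.2% ± 0.383 to 64.4% ± 0.196 on the plus strand (9.11 points) and from 54.6% ± 0.848 to 64.9% ± 0.619 on the minus strand (10.3 points). The samples of the genotypes did not overlap on either strand (exact permutation p = 0.1 for each). With sites weighted by their read-outs, which lets the most deeply read loci of each sample dominate its mean, the difference was 20.96 points and the samples overlapped (exact permutation p = 0.2). So weighted, it was 19.6 points on the plus strand, with overlap (exact permutation p = 0.5), and 12.6 points on the minus strand, without overlap (exact permutation p = 0.1). The unmethylated Timm17b locus had a plus-strand median of 46.0 read-outs in the second Tet2kd sample and 23775 to 58407 in the others. The weighted means thus mix levels with uneven coverage, and its part in them was not tested.

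At single cytosines, 234 of the 374 (62.6%) were higher in Tet2kd at an adjusted p under 0.05 in edgeR's quasi-likelihood test, beside 61.5% of all 416 CpG cytosines tested. None of the 374 was lower by edgeR at an adjusted or an unadjusted p under 0.05, nor by limma after adjustment, and 0.481% of all CpG cytosines tested were. In 222 of the 374 every Tet2kd sample lay above every v6.5 sample (59.4%, against 58.9% of all CpG cytosines tested). In 2 of the 374 every Tet2kd sample lay below every v6.5 sample, beside 0.721% of all tested. One of these, the minus-strand cytosine of a Gata1 site (window chrX:7539488-7539517) named after its values were seen, had a mean 3.40 points lower in Tet2kd (adjusted p = 0.12, edgeR). The median change was 9.28 points over the 374 cytosines and 8.39 points over all tested. Both cytosines of the site passed the test at 105 sites, 1 of them at 24 sites and neither at 58 sites.

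**Figure D1:**
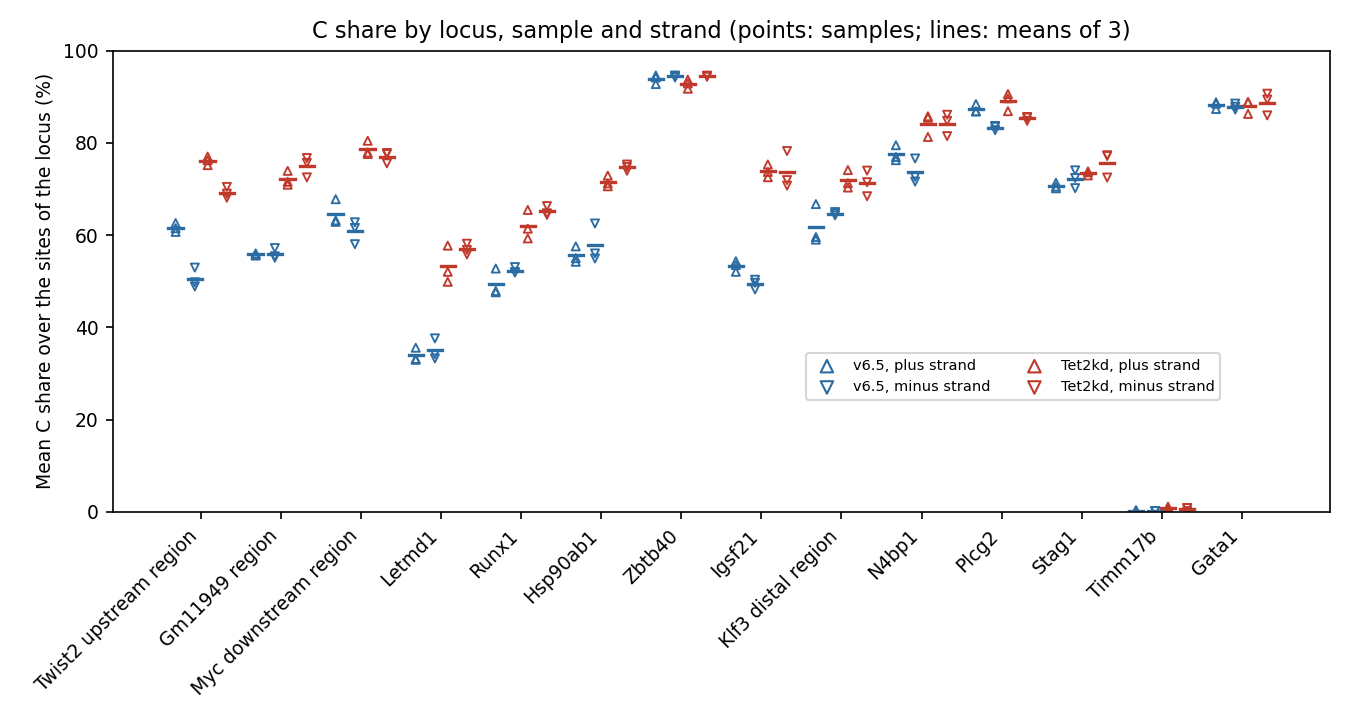
Mean C share (percent) over the sites of each locus named in the text, for each sample (points) on the plus strand (upward triangles) and the minus strand (downward triangles), with the mean of 3 samples as a line. In 7 loci, from the Twist2 upstream region to Hsp90ab1 and in Igsf21, all Tet2kd samples sit clearly above all v6.5 samples on both strands, while Zbtb40 and Gata1 stay near 85 to 95% and Timm17b near 0.

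The loci fell into groups by the size of the change. The largest change was in an intron of Igsf21, a member of the immunoglobulin superfamily (chr4:139783570-139783907). There the 9 sites averaged 50.9%, 51.3% and 51.9% in v6.5, against 72.3%, 73.0% and 76.0% in Tet2kd, and both cytosines of all 9 sites passed the test. The rise of 22.4 points comprised 20.6 points on the plus strand and 24.2 points on the minus strand. On the minus strand the third Tet2kd sample stood apart at 78.3%, beside 71.9% and 70.8% in the other Tet2kd samples, and leaving out any 1 sample kept the change of the locus between 21.3 and 23.2 points.

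Letmd1, which encodes a mitochondrial membrane protein, was covered over a coding exon and an adjoining intron (chr15:100299982-100300461). Its 20 sites averaged 34.4%, 33.6% and 35.4% in v6.5, against 56.8%, 53.4% and 55.1% in Tet2kd, a rise of 20.6 points. The plus strand rose by 19.3 points and the minus strand by 21.9 points, and both cytosines passed the test at 17 of the 20 sites. Plus-strand coverage was low here, with a median per sample between 63.0 and 230.5 against 1473 to 10732.5 on the minus strand, and the 3 sites called on 1 strand alone were all called on the minus strand.

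The region around the pseudogene Gm11949 (chr11:3525591-3525968), whose nearest coding gene is Morc2a at 23529 bp, held 20 sites, in an exon of the pseudogene and outside it. All 20 passed the test on both strands, and the locus mean rose from 55.9% ± 0.568 to 73.6% ± 1.80. In the intergenic region 22874 bp upstream of Twist2, a basic helix-loop-helix transcription factor (chr1:93674763-93675164), the 9 sites rose from 56.1% ± 1.23 to 72.7% ± 0.898, with both strands called at 8 of them.

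Hsp90ab1, which encodes a cytosolic chaperone (coding exon, chr17:45706386-45706820), showed a rise from 56.7% ± 2.88 to 73.1% ± 0.391 with both strands called at all 13 sites. An intergenic region 46695 bp downstream of the proto-oncogene Myc (chr15:61868624-61868988) rose from 62.7% ± 2.12 to 77.8% ± 1.15, again with both strands called at all 11 sites. In a coding exon of Runx1, a haematopoietic transcription factor (chr16:92644291-92644782), the 9 sites rose from 50.9% ± 1.77 to 63.6% ± 1.31, and both strands were called at 7 of them.

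Smaller and less even differences were found in 4 loci. An intergenic region 206967 bp from Klf3, a Krüppel-like factor (chr5:64987289-64987661), was higher by 8.39 points, and both strands were called at 7 of 13 sites. The change there ran from -3.03 to 18.2 points between sites. An intron of N4bp1, a binding partner of the ubiquitin ligase NEDD4 (chr8:89376776-89377095), was higher by 8.55 points, with 3 of 7 plus-strand and 6 of 7 minus-strand cytosines called. Stag1, a cohesin subunit (UTR and intron, chr9:100498295-100498720), was higher by 3.12 points and had 1 of 6 sites called on both strands, at 59.8% in v6.5 and 68.4% in Tet2kd. An intron of Plcg2, a phospholipase C of immune cells (chr8:120115553-120115846), went from 85.4% ± 0.580 to 87.2% ± 0.967, with 4 of 10 sites called on 1 strand and none on both. In each of these 4 loci, as in the 7 before them, the samples of the genotypes did not overlap in the mean of both strands (exact permutation p = 0.1, the smallest possible). On single strands they overlapped on the plus strand of Plcg2 and on the minus strand of Stag1 (exact permutation p = 0.2 for each).

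Of the sites in Zbtb40 and Gata1, none was called on either strand. The coding exon and intron of Zbtb40, a zinc finger gene (chr4:136547308-136547788), averaged 94.2% in v6.5 and 93.6% in Tet2kd over 13 sites, and the coding exon of Gata1, an erythroid transcription factor (chrX:7539243-7539675), 88.1% and 88.3% over 8 sites. The samples overlapped in both loci, and the differences between a Tet2kd and a v6.5 sample ran from -1.23 to 0.496 points and from -1.25 to 2.14 points. The signs for Zbtb40 and Gata1 turned under other weights or coverage minimums.

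Timm17b, a subunit of the mitochondrial import machinery (UTR, coding exon, intron and flank, chrX:7476281-7476698), was unmethylated. Its 27 sites averaged 0.211%, 0.207% and 0.288% in v6.5, against 0.703%, 0.653% and 0.855% in Tet2kd. The difference of 0.502 points was called on both strands at 9 sites and on 1 strand at 10. With sites weighted by their read-outs it was 0.275 points, and the samples overlapped (exact permutation p = 0.4). Non-CpG cytosines of the locus had 0.137% to 0.151% on the plus strand and 0.157% to 0.160% on the minus strand in v6.5. In Tet2kd they had 0.135% to 0.236% and 0.125% to 0.166%. On the minus strand the second Tet2kd sample, at 0.175%, lay among the v6.5 samples (0.164% to 0.193%). On the plus strand that sample had a median of 46.0 read-outs per site against 23775 to 58407 in the other samples. At the named intron site it gave 2 C read-outs of 46 (4.35%, Wilson 95% interval 1.20% to 14.5%), beside 0.528% and 0.874% in the other Tet2kd samples and 0.164% to 0.305% in v6.5.

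Change on the plus strand went with change on the minus strand site by site. Both strands had a higher mean in Tet2kd at 150 of 187 sites, and across sites Pearson's r between the changes was 0.944 over 187 sites and 0.934 over the 160 sites outside Timm17b. This is a description across sites, which share samples, loci and reads. The changes of the strands lay within 5 points of each other at 164 sites and differed by more than 10 points at 4, with a median distance of 1.72 points. At the Igsf21 site printed above, which carried the largest change, the plus strand had 25.2%, 30.5% and 28.9% in v6.5, against 62.1%, 62.1% and 60.7% in Tet2kd. Its minus strand had 25.9%, 26.7% and 31.4% in v6.5, against 60.6%, 58.0% and 73.8% in Tet2kd. The strands thus rose by 33.5 and 36.1 points (adjusted p = 4.8e-05 and 0.00015, edgeR), and no Tet2kd sample came near the v6.5 range on either. The site with the largest change in each locus was picked from sites without overlap of the genotypes on either strand. Separation at these sites is therefore set by the choice, and their p-values carry it too.

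At the printed Gm11949 site the plus strand rose from 43.9% ± 2.31 to 71.7% ± 1.88 and the minus strand from 42.4% ± 2.05 to 77.3% ± 2.58. At the printed Letmd1 site the plus strand rose from 43.3% ± 8.86 to 72.1% ± 8.20 and the minus strand from 47.8% ± 2.81 to 75.3% ± 1.01. The wide spread on the plus strand of Letmd1 went with 16 read-outs in the shallowest sample. An intron site of Letmd1 (chr15:100300094-100300123 in its 30-base window) had 25.2%, 30.6% and 21.3% on the plus strand in v6.5, against 53.8%, 55.3% and 55.6% in Tet2kd. Its minus strand went from 31.6% ± 3.52 to 57.5% ± 0.537. At the printed Twist2 upstream site with the largest change the plus strand rose from 26.3% ± 12.7 to 55.5% ± 2.20, with 17 read-outs in the shallowest sample, and the minus strand from 24.1% ± 3.01 to 48.9% ± 1.97.

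In other loci the site with the largest change rose from 46.8% to 71.7% in Hsp90ab1, from 51.7% to 72.2% in the Myc downstream region, from 33.9% to 51.7% in Runx1 and from 30.3% to 48.4% in the Klf3 distal region, as means of both strands. At each of these sites, picked for the largest change without overlap, both cytosines passed the test. The strands (plus strand first) rose by 22.3 and 27.6 points in Hsp90ab1 and by 19.4 and 21.5 points in the Myc downstream region. In Runx1 they rose by 17.1 and 18.4 points, and in the Klf3 distal region by 18.3 and 17.98 points. The printed Zbtb40 site was nearly fully methylated in both genotypes. Its plus strand had 94.97% ± 7.24 in v6.5 and 93.7% ± 4.94 in Tet2kd at 56 to 166 read-outs, and its minus strand 96.4% ± 0.698 and 95.8% ± 0.788 (adjusted p = 0.94 and 0.35, edgeR).

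**Figure D2:**
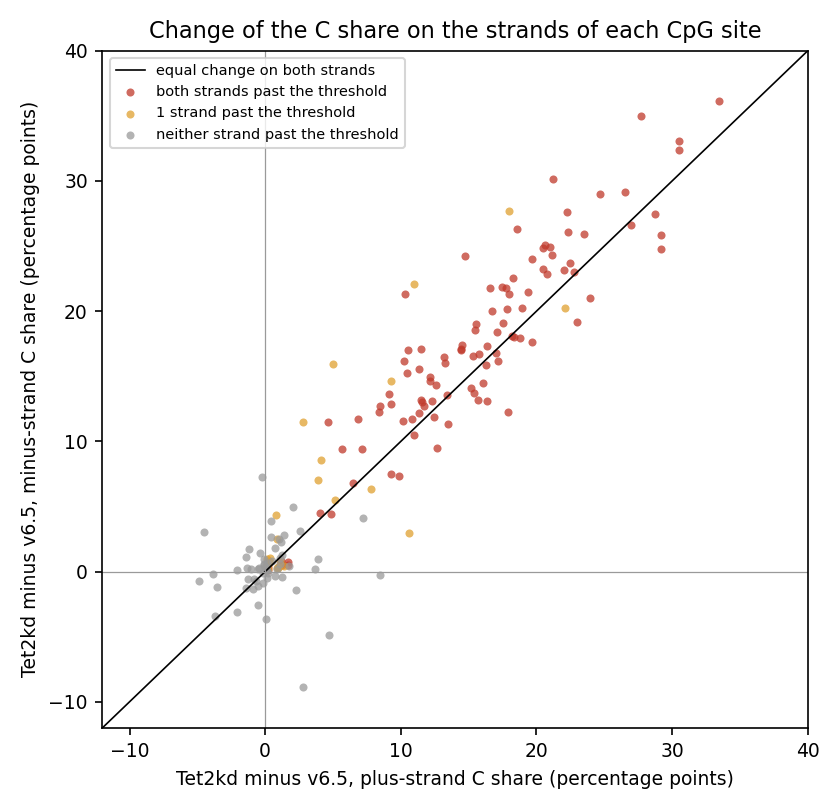
Change of the C share (Tet2kd minus v6.5, percentage points) on the plus strand (horizontal) against the minus strand (vertical), 1 point per CpG site, coloured by how many of its cytosines passed an adjusted p of 0.05 in edgeR. The points lie along the line of equal change, up to 33.5 and 36.1 points at the Igsf21 site.

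The size of the change differed by the level in v6.5, which also enters the change itself. Of the 42 sites with a C share of 5 to 50% in v6.5, 39 were called on both strands, and their median rose from 38.0% to 60.3%, with a median change of 21.5 points and no site under 10.7. Of the 75 sites between 50 and 80%, 55 were called on both strands, with a median change of 12.3 points. Of the 43 sites above 80%, 2 were called on both strands, and the median change was -0.0687 points. These sites lay in 7 loci and included all 13 of Zbtb40, while Igsf21, Letmd1 and the Twist2 upstream region had no site above 77.4%. Level and locus thus went together, and their parts in the change were not tested. The 27 sites under 5% were those of Timm17b.

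**Figure D3:**
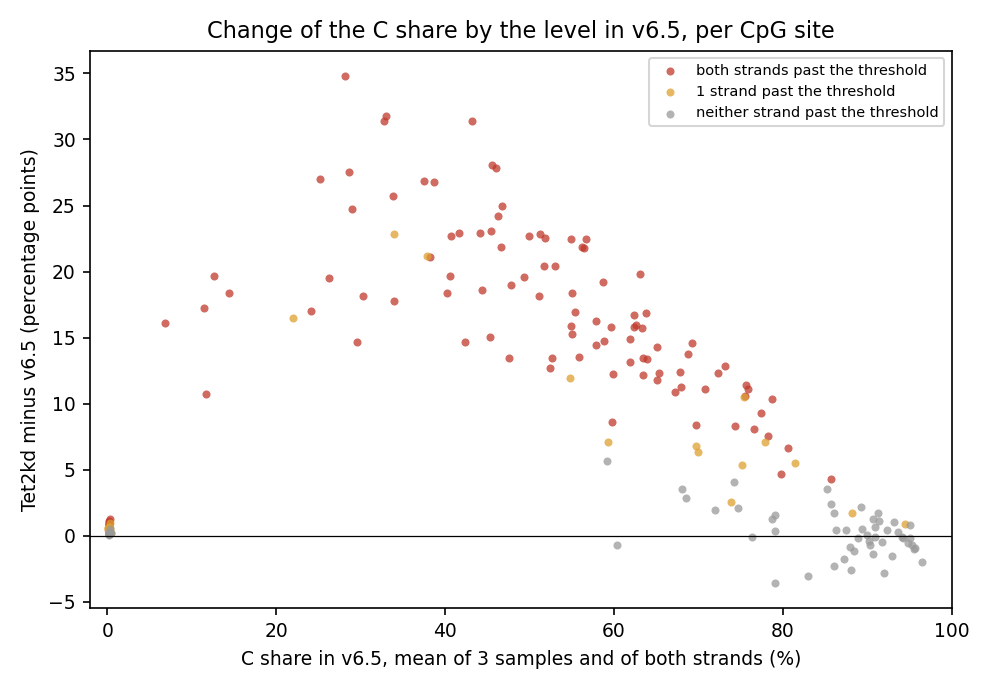
Change of the C share (Tet2kd minus v6.5, percentage points, mean of both strands) against the C share in v6.5 (percent), 1 point per CpG site, coloured by how many of its cytosines passed the test. Changes are largest, up to 34.8 points, between about 20 and 50% in v6.5 and scatter around 0 above 85%.

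Within most changed loci the sites moved closer together, while their levels in v6.5 and in Tet2kd stayed correlated. In Igsf21 the SD between sites fell from 17.1 points in v6.5 to 8.68 points in Tet2kd, and the range from 47.8 to 24.1 points. The lowest Igsf21 site, at 28.1% in v6.5, rose by 34.8 points, and the highest, at 75.9%, rose by 11.1 points. In the Twist2 upstream region the lowest site, at 25.2%, rose by 27.0 points and the highest, at 77.4%, by 9.30 points. In N4bp1 the lowest site, at 51.9%, rose by 22.6 points, and the highest, at 93.7%, differed by 0.265 points. Letmd1 was an exception, with an SD between sites of 18.4 points in v6.5 and 19.3 points in Tet2kd. Its lowest site, at 6.80%, rose by 16.1 points, and its highest, at 75.6%, by 10.6 points. Nor was the lowest site of a locus always the one that rose most. In the Gm11949 region it stood at 24.1% in v6.5 and rose by 16.98 points, against 31.4 points at the printed site there. Across the sites of the 7 most changed loci, Pearson's r between the levels in v6.5 and in Tet2kd ran from 0.903 in the Gm11949 region to 0.985 in the Twist2 upstream region, as a description over 9 to 20 sites.

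**Figure D4:**
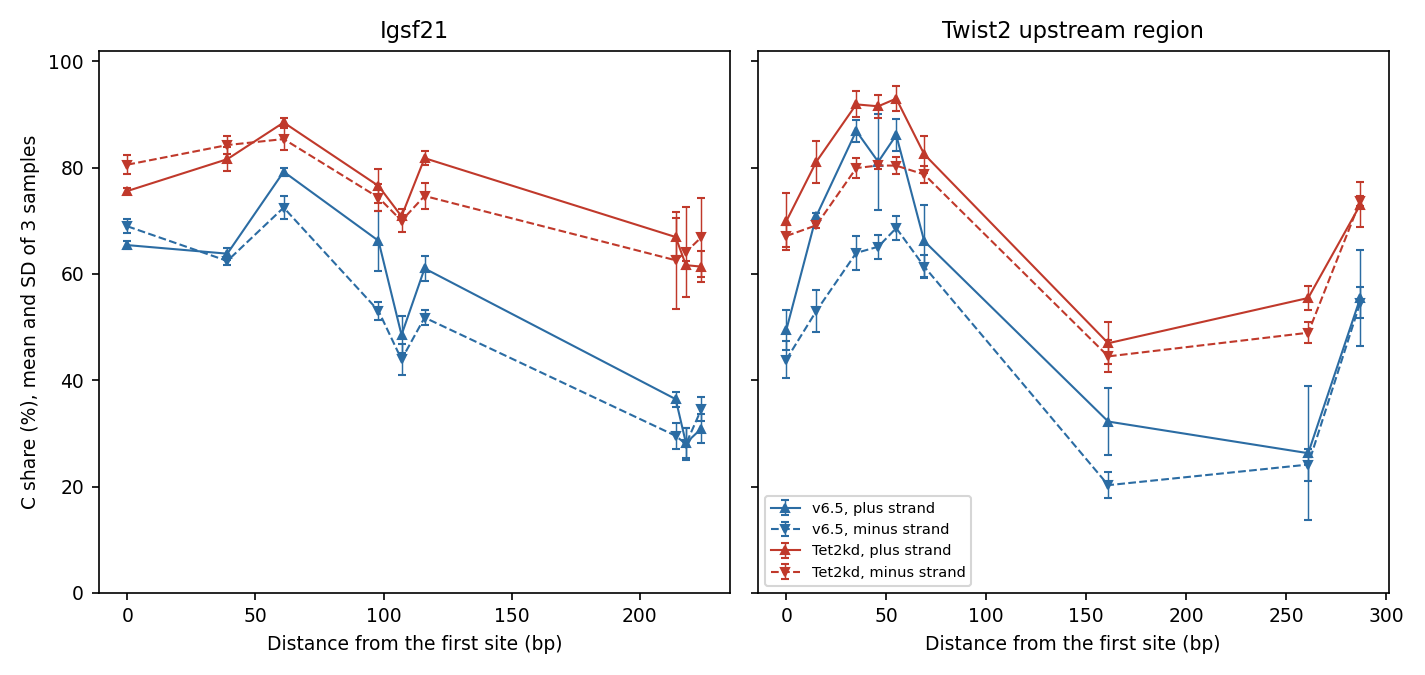
C share (percent, mean and SD of 3 samples) along the 9 sites of Igsf21 and the 9 sites of the Twist2 upstream region, by distance from the first site (bp), on the plus strand (solid) and the minus strand (dashed). Tet2kd lies above v6.5 at every site, the gap is widest where v6.5 is lowest, and in the Twist2 upstream region the plus strand lies above the minus strand at all 9 sites in v6.5.

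Within a sample the strands of a site were close. Pearson's r between the plus-strand and minus-strand C share over 187 sites lay between 0.972 and 0.982 in the 6 samples, and between 0.896 and 0.958 without Timm17b. The median absolute strand difference was 3.02 to 3.48 points. The strands were within 5 points at 121 to 133 sites per sample, differed by more than 10 points at 17 to 26 sites and by more than 20 points at 0 to 4 sites. The mean absolute strand difference was 4.49 ± 0.420 points in v6.5 and 4.37 ± 0.341 points in Tet2kd, and the samples overlapped (exact permutation p = 0.6). The difference between a Tet2kd and a v6.5 sample ran from -0.916 to 0.575 points.

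The signed difference, plus strand minus minus strand, was 1.22, 0.679 and 0.166 points in v6.5 and -0.476, -0.122 and -0.984 points in Tet2kd. The groups did not overlap and differed by -1.22 points (exact permutation p = 0.1), the minus-strand means being 10.3 points apart and the plus-strand means 9.11 points. The direction turned when sites were weighted by their read-outs (7.02 points, exact permutation p = 0.9). The uneven plus-strand coverage of unmethylated Timm17b between samples enters this weighted value too, and its part was not tested. Among single loci with no overlap between genotypes in this difference, it went from 11.1 ± 2.25 to 6.95 ± 1.13 points in the Twist2 upstream region and from -0.0926 ± 1.18 to -2.82 ± 1.25 points in the Gm11949 region. The exact permutation p was 0.1 for each, without correction for the number of loci. The samples overlapped in this difference in, for example, the Myc downstream region, Letmd1, Runx1, Hsp90ab1 and Zbtb40.

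A strand difference was called at 29 of 187 sites in v6.5 (15.5%) and at 36 in Tet2kd (19.3%), with edgeR at an adjusted p under 0.05, and at 20 sites in both genotypes. The median of the lowest coverage per site was 489 at sites called in v6.5 and 433.5 at those called in Tet2kd. It was 165.5 at sites called in neither, and the part of coverage in these counts was not tested. Neighbouring sites share molecules and are not independent. The count in v6.5 fell when a v6.5 sample was left out, to 8, 17 and 18 sites without replicate 1, 2 and 3 in turn. Each such fit had fewer v6.5 samples, and the part of this or of single samples in the fall was not tested. Of the 29 sites called in v6.5, the means of both genotypes had the same sign at 28, and all 6 samples had it at 23. Of the 142 sites called in neither genotype, these counts were 103 and 13. The calls came from the same samples, so the choice of sites itself favours a shared sign in the 29 over the 142. At the 20 sites called in both genotypes the sign was the same in all 6 samples, which choosing sites by both calls favours. The plus strand was higher at 11 of the 20 and the minus strand at 9. Their median absolute strand difference was 8.81 points in v6.5 and 9.40 points in Tet2kd. They lay, among others, in the Twist2 upstream region (4 sites), Plcg2 (4), Hsp90ab1 (3), Zbtb40 and the Klf3 distal region (2 each) and in Gm11949, Igsf21, Stag1 and Gata1 (1 each). They thus included loci with many cytosines higher in Tet2kd and Zbtb40 and Gata1 without any.

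No site passed the test for a change of the strand difference with the knockdown. The strand by genotype interaction was called at 0 of 187 sites by edgeR, with 11 sites at an unadjusted p under 0.05 and a smallest adjusted p of 0.778, and at 0 sites by limma, with 5 at an unadjusted p under 0.05. Without the third v6.5 sample 1 site was called, and without the second Tet2kd sample 2 sites were. Across sites, the strand difference in v6.5 and that in Tet2kd had a Pearson's r of 0.795, and of 0.790 after the mean of each locus was taken out, given as a description over 187 sites.

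**Figure D5:**
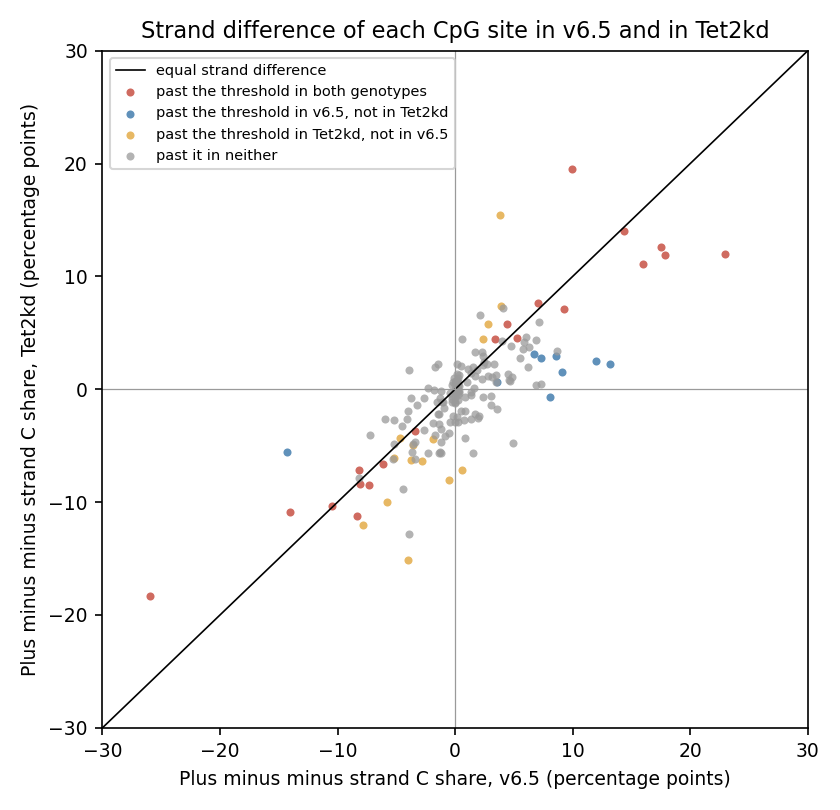
Strand difference (plus minus minus strand C share, percentage points, mean of 3 samples) in v6.5 (horizontal) against Tet2kd (vertical), 1 point per CpG site, coloured by the genotypes in which edgeR called it. The 20 sites called in both lie where both values have the same sign, from the Klf3 distal site at -26.0 and -18.3 points to the Twist2 site at 22.9 and 11.99 points.

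Among sites with the same sign in all samples, the largest strand difference in v6.5 was at the printed site of the Klf3 distal region. There the plus strand had 55.5%, 53.7% and 61.0% in v6.5, below the minus strand at 80.01%, 85.2% and 82.9%. In Tet2kd the plus strand had 63.5%, 67.2% and 71.3%, and the minus strand 86.0%, 86.3% and 84.5%. The difference was -26.0 ± 4.91 points in v6.5 and -18.3 ± 4.69 points in Tet2kd (adjusted p = 3.2e-06 and 2.5e-05, edgeR), at 415 or more read-outs per strand and sample. The plus strand of this site rose by 10.6 points (adjusted p = 0.011, edgeR) while the minus-strand means were 2.95 points apart (adjusted p = 0.14, edgeR). The interaction that compares these differences had an unadjusted p of 0.19 in edgeR.

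Next came 4 neighbouring sites of the Twist2 upstream region, with differences of 15.97 to 22.9 points in v6.5 and 11.1 to 12.6 points in Tet2kd. At the printed site with the largest difference the plus strand had 85.7%, 89.3% and 85.7% in v6.5, against 89.9%, 91.3% and 94.6% in Tet2kd. The minus strand had 65.5%, 66.1% and 60.3%, and 81.1%, 81.0% and 77.7%. The plus strand was higher in all 6 samples, as the choice of these sites required. They were ranked by their v6.5 difference, so the intervals that follow describe a picked site. The plus strand was read 28 times in each of 2 v6.5 samples, with Wilson 95% intervals from 72.8% to 96.3% and from 68.5% to 94.3%. Both lay above the minus strand intervals of the same samples (61.8% to 70.1% and 56.4% to 64.2%). Over the 9 sites of the locus the plus strand averaged 62.6%, 61.5% and 60.7% in v6.5 against 49.8%, 53.0% and 48.9% on the minus strand. In Tet2kd it averaged 76.2%, 77.0% and 75.2% against 70.5%, 69.0% and 68.1%. Median plus-strand coverage of the locus was 27.0 to 343.0 and minus-strand coverage 503.0 to 4036, and the part of this imbalance in the strand difference was not tested. Plcg2 also leaned to the plus strand, at 9 of its 10 sites in v6.5 and 8 in Tet2kd, by 4.06 ± 0.880 and 3.76 ± 2.04 points over the locus.

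The sites whose change differed most between the strands did not pass the interaction test. A Klf3 distal site (window chr5:64987455-64987484) had plus-strand means 2.79 points apart (adjusted p = 0.14, edgeR), and minus-strand shares of 81.1% ± 11.1 in v6.5 and 72.2% ± 5.79 in Tet2kd (adjusted p = 0.21, edgeR). A Letmd1 site (window chr15:100300208-100300237) rose from 24.0% ± 2.75 to 46.1% ± 1.40 on the minus strand (adjusted p = 7.1e-05, edgeR). Its plus-strand shares were 19.98% ± 6.59 and 30.9% ± 13.3 (adjusted p = 0.43, edgeR), with 13 read-outs in the shallowest sample and a Wilson 95% interval there from 23.2% to 70.9%.

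The oxBS-seq samples, made from the remainder of the same DNA preparations and read mainly as 5mC, did not enter the choice of these sites. The paper estimates that oxidation was incomplete, and less complete in v6.5 than in Tet2kd. Some 5hmC is therefore still read as C in these samples, as in BS-seq. Of the 29 sites with a strand difference in v6.5, 24 were also covered on both strands in oxBS-seq, and at all 24 the mean of the v6.5 oxBS-seq samples had the same sign. The sign was the same in all 6 oxBS-seq samples at 9 of these 24, and the Tet2kd means of BS-seq and oxBS-seq had the same sign at 19. Of the 36 sites called in Tet2kd, 31 were covered, and at 25 of them the Tet2kd means of both methods had the same sign. Of the 131 covered sites called in neither genotype, 86 had the same sign in the v6.5 means and 86 in the Tet2kd means. At the printed Klf3 distal site the oxBS-seq strand difference was -22.0 points in v6.5 and -23.5 points in Tet2kd. The neighbouring Twist2 upstream sites with the next largest differences did not reach the coverage minimum in all oxBS-seq samples and were not among the covered sites. Over 170 sites Pearson's r between the BS-seq and the oxBS-seq strand difference was 0.688 in v6.5 and 0.552 in Tet2kd, as a description of sites that share DNA and amplified regions.

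The sequence next to the CpG was compared between the strands at the 160 sites outside Timm17b. The base 5′ of the C was the same on both strands at 38 sites, where the median absolute strand difference in v6.5 was 1.82 points and 10 sites were called in either genotype. It differed at 122 sites, with a median of 3.52 points and 34 sites called, beside 44 called of all 160. The called part was thus similar in both groups. They were not matched for locus, level or coverage. The median change with the knockdown was 12.9 and 12.1 points in these groups. No test was made of the difference.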

How the data were processed

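Targeted bisulfite sequencing was carried out by the authors on genomic DNA of v6.5 and Tet2kd cells. Reads were aligned by the authors with Bismark (version 0.7.12, Bowtie 2) to mm9 and lambda, and the deposited counts of both read-outs (C, T) at each cytosine were used, without normalization. The percent of C that the authors deposited beside them served as a check. Deposited positions, which count from 0, were shifted by 1, strand and context were read from the mm9 sequence, genes from GENCODE vM1, and lambda was left out. Loci were separated by gaps over 5000 bp. Of the 15 loci, 1 is not reported here on its own, and its sites remain in the totals.

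C and T counts were fitted with edgeR (version 4.0.16, quasi-likelihood, common dispersion), genotype effects over all 416 CpG cytosines and strand effects within samples over the 187 sites, with p-values adjusted by Benjamini-Hochberg and called under 0.05. Means per sample were compared with exact two-sided permutation tests over 20 assignments. The fits were also run on simulated counts with independent sites and a fixed spread between samples. Such runs do not show how often the calls in these data are right. Alternatives were limma (version 3.58.1), quasi-binomial regression, Fisher's exact test, coverage minimums of 100 and 1000, weighting by read-outs, stricter thresholds, a replicate block, and leaving out each sample. Leaving out Timm17b was added after seeing the data. The sites and lists were chosen with earlier results of these data known. Named sites were those with the largest change per locus among sites without overlap, the 5 largest strand differences in v6.5 with 1 sign in all samples, the 5 largest strand differences of the change, and positions that the study names.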

Additional observations from a re-analysis of the deposited data

How the results depend on the processing

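Of 289 recomputed values, 257 kept their direction and side of the threshold, or stayed within the spread or 1.5 times the count, and 13 of 15 loci kept the sign of their change under the alternatives that gave them a value (a coverage minimum of 100 gave a value for 13 loci and 1000 for 3). Zbtb40 turned to 0.0406 points at a coverage minimum of 100 and 0.0963 points with weighting by read-outs. Gata1 turned to -2.03, -0.506 and -0.213 points at minimums of 100 and 1000 and with weighting, and ran from -0.411 to 0.748 points with 1 sample left out. With weighting the mean change was 20.96 points with overlap (exact permutation p = 0.2), the strand difference of the mean change turned to 7.02 points, and the mean absolute strand difference was 1.94 points in v6.5 and 3.11 points in Tet2kd. Without Timm17b it was 5.20 and 4.97 points. A coverage minimum of 100 left 116 sites in 13 loci and 152 cytosines called higher. A minimum of 1000 left 13 sites, with 16 cytosines and 8 sites called higher and a strand difference at 4 sites in v6.5 and 2 in Tet2kd. Strand differences in v6.5 and Tet2kd were called at 11 and 17 sites by limma, 15 and 20 sites at a threshold of 0.01, and 11 and 13 sites when over 10 points were also required. With 1 sample left out they were called at 8 to 36 sites in v6.5 and 25 to 34 in Tet2kd, the interaction at 0 to 2 sites, and lower cytosines numbered 0 to 2. Cytosines called lower were 15 by Fisher's exact test on pooled counts, which ignores replicate spread, and 1 by quasi-binomial regression. Except where fewer sites, a stricter rule or pooling is the change itself, the cause was not tested.

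Samples with the same replicate number deviated together with correlations of 0.162, -0.0213 and 0.145, so the numbers were not taken to pair the samples, and the second v6.5 sample correlated best with another number. With the replicate block, 245 cytosines were called higher, 1 lower and 108 sites on both strands, and the mean change stayed 9.71 points. With 1 sample left out, edgeR estimated 1 spread from the remaining 5 samples. Plus-strand depth limits the Twist2 upstream region, Letmd1 and Zbtb40, and minus-strand depth Gata1 and the Klf3 distal region.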

Other observations

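Outside the 187 sites, 42 CpG cytosines had enough read-outs on 1 strand alone. Of these, 22 were higher and 2 lower in Tet2kd at an adjusted p under 0.05 (edgeR), with a median change of 3.26 points. These are the only cytosines called lower among the 416 tested.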
